A study of Mus musculus with 10 samples.

Results

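The circadian clock genes Arntl, Clock, Cry1, Cry2, Per1, Per2, Per3, Nr1d1, Nr1d2 and Dbp were followed in sorted epithelial cells of the mouse ileum. They were chosen by symbol, with earlier results of these data known, and all 10 were present among the 13932 genes of the deposited count table. All 10 also passed the filter on low counts, which kept 12477 genes (89.6%). The mutants were 5 dIEC mice, with both H2-Ab1 alleles floxed and Cre driven by the villin promoter (H2-Ab1 fl/fl; Villin:Cre+), a promoter active in intestinal epithelium. They were compared with 5 WT mice that carried the same floxed alleles without Cre (H2-Ab1 fl/fl; Villin:Cre-). Each genotype held 3 males and 2 females: dIEC mice 1, 3 and 5 and WT mice 2, 4 and 6 were male, and dIEC mice 7 and 9 and WT mice 8 and 10 were female. The sample labels give Cre for dIEC, whereas the series text writes Cre- for both genotypes. Loss of H2-Ab1 and the presence of Cre cannot be told apart in this design. Age, strain and the hour at which tissue was taken are not in the labels, and the part of sampling time in any difference below was not tested.

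Live CD45-negative, EpCAM-positive cells were sorted and the RNA of each mouse was sequenced as 1 library of 9174101 to 13484363 counts. Values are CPM, counts relative to library totals scaled by the trimmed mean of M-values (TMM), and log2 fold changes come from edgeR with sex and genotype in the model. H2-Ab1, the floxed gene, stood at 0.767 to 3.11 CPM in dIEC and 62.9 to 368 CPM in WT (log2 fold change -6.39, SE 0.51, edgeR adjusted p = 0.000904). Of the markers of the labelled cell type, all 11 epithelial genes were listed, at a summed 12049 to 18800 CPM in dIEC and 11824 to 15399 CPM in WT. Of 15 leukocyte genes 4 were listed, at a summed 14.1 to 21.6 CPM in dIEC and 12.4 to 21.0 CPM in WT, and Ptprc, which encodes CD45, averaged 0.489 CPM over all libraries. In bulk RNA, fewer cells expressing a gene and less of its RNA per cell cannot be told apart.

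The clock is a feedback loop of transcription and translation. CLOCK, or its relative NPAS2, pairs with the product of Arntl (BMAL1) at E-box sequences and activates the Per and Cry genes, whose proteins then repress that activity. In a second loop the nuclear receptors encoded by Nr1d1 and Nr1d2 (REV-ERB alpha and beta) repress Arntl at their response elements. Dbp is a direct E-box target that acts on D-box sequences, and its RNA peaks in many tissues at the phase opposite to that of Arntl. The intestinal epithelium holds such a clock, which is entrained by feeding and drives daily rhythms of nutrient transport.

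Of the promoters of the 10 genes, those that carry a letter-perfect clock motif are shown. RefSeq promoters on GRCm38.p6, from 250 bases before to 50 bases after a transcription start, were matched for 9 of 10 genes, with 13 promoters among them. Per2 had no matched promoter and was not searched. The canonical E-box CACGTG, searched on both strands as were the others, occurred in 2 of these 13 promoters, against 7.15% of all 32851 promoters in the table. The D-box, read as TTATGTAA or TTACGTAA, occurred in 1 of 13 (1.06% of all promoters), and the REV-ERB response element TAGGTCA in 1 of 13 (2.61%). Capitals mark the motif, and each sequence runs 5′ to 3′ on the strand of its gene: Cry1 at chr10:85185005-85185304 on the minus strand, Per1 at chr11:69098699-69098998 on the plus strand, Per3 at chr4:151044616-151044915 on the minus strand and the second Arntl start at chr7:113207261-113207560 on the plus strand.
Cry1: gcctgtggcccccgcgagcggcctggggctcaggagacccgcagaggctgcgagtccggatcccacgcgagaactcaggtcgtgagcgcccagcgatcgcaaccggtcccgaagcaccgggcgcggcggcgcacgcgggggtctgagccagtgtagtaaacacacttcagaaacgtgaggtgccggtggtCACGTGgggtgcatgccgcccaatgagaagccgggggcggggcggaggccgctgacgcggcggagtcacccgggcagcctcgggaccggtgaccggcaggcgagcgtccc
Per1: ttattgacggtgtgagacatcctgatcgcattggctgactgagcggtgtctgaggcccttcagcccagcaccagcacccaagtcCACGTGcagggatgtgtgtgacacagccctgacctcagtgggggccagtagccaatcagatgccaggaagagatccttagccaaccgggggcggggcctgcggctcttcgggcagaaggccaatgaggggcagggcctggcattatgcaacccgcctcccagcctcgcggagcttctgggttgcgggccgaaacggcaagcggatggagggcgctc
Per3: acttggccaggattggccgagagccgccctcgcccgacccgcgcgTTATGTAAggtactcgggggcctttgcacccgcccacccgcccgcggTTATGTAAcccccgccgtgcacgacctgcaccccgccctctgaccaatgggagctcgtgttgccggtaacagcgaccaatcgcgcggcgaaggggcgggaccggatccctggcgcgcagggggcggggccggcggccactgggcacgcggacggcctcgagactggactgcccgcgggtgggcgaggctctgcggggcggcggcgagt
Arntl: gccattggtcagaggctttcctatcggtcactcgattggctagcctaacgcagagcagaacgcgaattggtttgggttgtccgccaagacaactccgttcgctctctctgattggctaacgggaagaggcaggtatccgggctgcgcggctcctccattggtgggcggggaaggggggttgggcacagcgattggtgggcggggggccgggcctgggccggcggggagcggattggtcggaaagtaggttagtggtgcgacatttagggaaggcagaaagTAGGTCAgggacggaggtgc
The E-box began 60 bases before the start of Cry1 and 166 bases before that of Per1, Per3 held 2 D-boxes, and the element in Arntl lay after the start. A match describes the letters alone, and a promoter without one says nothing about the factor.

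Among the activators, Arntl was the gene whose genotypes stood furthest apart for their spread. It measured 103, 95.1, 94.7, 104 and 77.8 CPM in dIEC mice 1, 3, 5, 7 and 9, against 74.6, 86.0, 75.3, 75.0 and 83.3 CPM in WT mice 2, 4, 6, 8 and 10. All dIEC mice except mouse 9 lay above every WT mouse, so the groups overlapped through that mouse. Means were 94.9 ± 10.4 CPM in dIEC and 78.9 ± 5.39 CPM in WT (SD, n = 5 mice each). The log2 fold change, dIEC over WT, was 0.27 with a standard error of 0.12. Its unadjusted edgeR p was 0.043, and after Benjamini-Hochberg adjustment over all tested genes it was 0.9999. Clock, the partner of BMAL1, gave 185, 154, 154, 168 and 138 CPM in dIEC mice 1, 3, 5, 7 and 9, against 144, 179, 136, 158 and 174 CPM in WT mice 2, 4, 6, 8 and 10. The genotypes covered the same range. The fold change of Clock was 0.015 on the log2 scale (SE 0.13), and its coefficient of variation over the 10 mice, 10.7%, was the smallest of the 10 genes, followed by 13.3% for Arntl.

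The cryptochromes, repressors of CLOCK and BMAL1, varied far more from mouse to mouse than between genotypes. Cry1 measured 25.7, 21.4, 23.4, 31.7 and 10.9 CPM in dIEC mice 1, 3, 5, 7 and 9, against 14.8, 29.7, 20.9, 10.01 and 19.2 CPM in WT mice 2, 4, 6, 8 and 10. For Cry2 the values were 44.5, 31.1, 39.2, 61.6 and 12.6 CPM in the same dIEC mice and 17.7, 56.3, 33.6, 16.3 and 33.1 CPM in the same WT mice. Both genes were highest in dIEC mouse 7 and WT mouse 4. Both were among their lowest in the females dIEC mouse 9 and WT mouse 8, and the genotypes overlapped throughout. The log2 fold change was 0.28 (SE 0.31) for Cry1 and 0.29 (SE 0.43) for Cry2, each smaller than its standard error, with an edgeR adjusted p of 0.9999. Cry2 had the widest spread of all 10 genes, with a coefficient of variation of 47.6%.

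The period genes encode the partners of the cryptochromes in the repressor complex. Per1, which outside signals can also induce quickly, measured 31.5, 24.8, 41.5, 43.8 and 14.7 CPM in dIEC mice 1, 3, 5, 7 and 9, against 25.02, 54.1, 29.3, 12.0 and 21.1 CPM in WT mice 2, 4, 6, 8 and 10. As for the cryptochromes, the lowest mouse of each genotype was female and the highest were dIEC mouse 7 and WT mouse 4. Per2, required for a stable rhythm, was at 22.3, 22.1, 22.8, 30.3 and 13.8 CPM in those dIEC mice and at 25.1, 28.6, 27.6, 13.01 and 32.9 CPM in those WT mice. The 3 dIEC males lay within 1 CPM of each other and below the 3 WT males, while females spanned the whole range in both genotypes. Per3, which is dispensable for the rhythm itself, was at 6.59, 4.79, 7.41, 7.36 and 6.07 CPM in dIEC and at 7.81, 10.3, 7.51, 4.92 and 9.503 CPM in WT, in the same order of mice. All WT mice but the female mouse 8 exceeded every dIEC mouse. Log2 fold changes were 0.23 (SE 0.36) for Per1, -0.19 (SE 0.26) for Per2 and -0.31 (SE 0.23) for Per3, each with an edgeR adjusted p of 0.9999.

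In the second loop, Nr1d1 fell into separate sets of mice that crossed the genotypes. It measured 86.8, 92.6, 91.5, 203 and 61.4 CPM in dIEC mice 1, 3, 5, 7 and 9, against 94.5, 184, 96.9, 62.8 and 189 CPM in WT mice 2, 4, 6, 8 and 10. Thus dIEC mouse 7 and WT mice 4 and 10 stood at 184 to 203 CPM, and no other mouse exceeded 96.9 CPM. Nr1d2 was at 33.8, 31.0, 38.0, 40.3 and 31.2 CPM in the dIEC mice and at 22.4, 50.7, 26.9, 36.7 and 56.0 CPM in the WT mice, in the same order. Its spread was wider in WT (38.5 ± 14.6 CPM) than in dIEC (34.9 ± 4.17 CPM; SD, n = 5 each), a difference that was not tested. The log2 fold change was -0.25 (SE 0.38) for Nr1d1 and -0.12 (SE 0.23) for Nr1d2.

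Dbp, the output factor, drew the fewest reads of the 10 genes. It measured 3.66, 4.54, 5.79, 7.70 and 3.25 CPM in dIEC mice 1, 3, 5, 7 and 9 (35 to 68 counts), against 4.82, 8.06, 6.02, 3.59 and 9.23 CPM in WT mice 2, 4, 6, 8 and 10 (43 to 103 counts). Its 3 highest values belonged to the same mice as those of Nr1d1, namely dIEC mouse 7 and WT mice 4 and 10. Means were 4.99 ± 1.80 CPM in dIEC and 6.35 ± 2.31 CPM in WT (SD, n = 5 each), and the log2 fold change was -0.35 (SE 0.33, edgeR adjusted p = 0.9999).

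**Figure D1:**
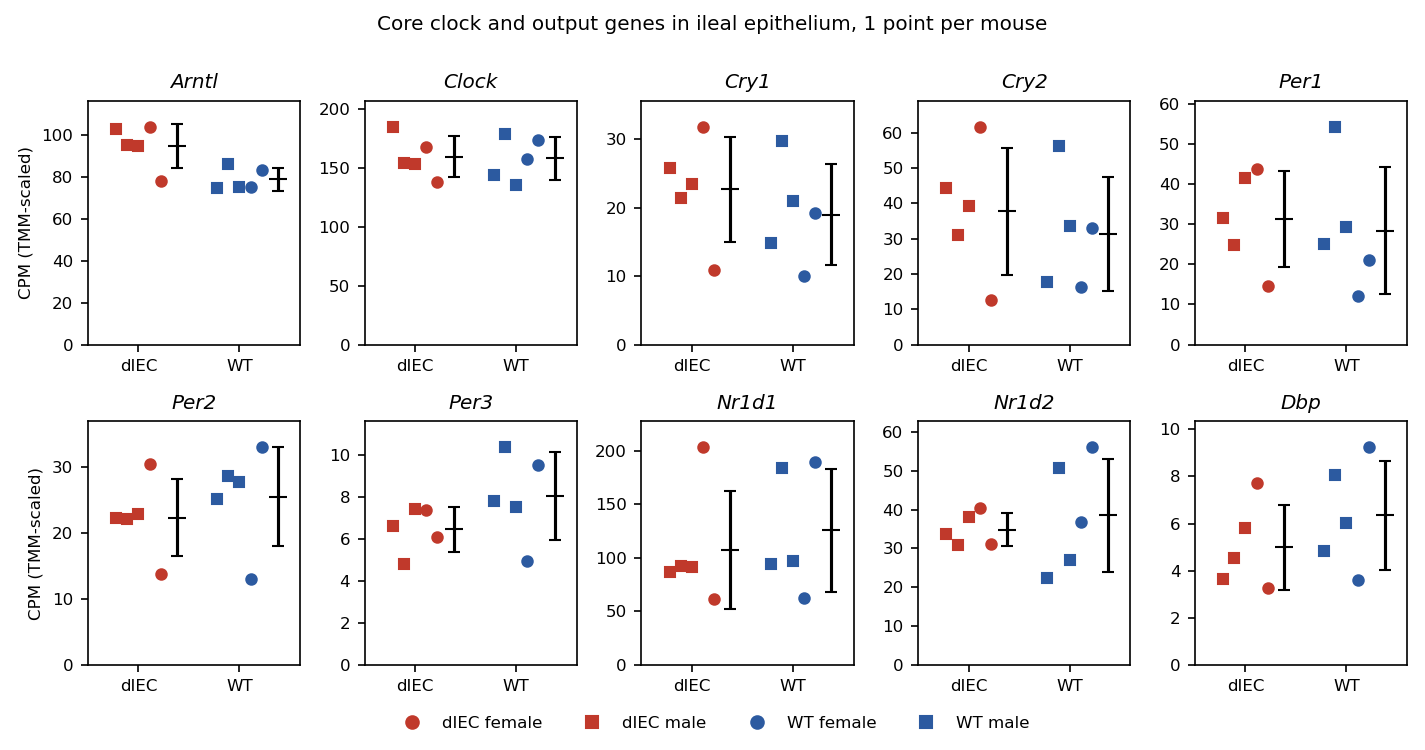
CPM of the 10 clock genes, 1 point per mouse, with dIEC left of WT, squares for males and circles for females, and black bars for the mean and SD of 5 mice. Only for Arntl do 4 of the 5 dIEC mice lie above all WT mice; Nr1d1 shows 3 mice near 200 CPM, 1 dIEC and 2 WT.

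Per kilobase of exon, which allows levels to be set side by side between genes, the order over all mice was Nr1d1 at 37.8 CPM, Clock at 11.6, Arntl at 11.6, Nr1d2 at 6.78, Cry1 at 6.22, Cry2 at 5.48, Per1 at 5.29, Per2 at 4.07, Dbp at 1.89 and Per3 at 0.753. Clock and Arntl did not differ beyond their spread, nor did the neighbours from Nr1d2 to Per2. These lengths join all annotated exons of a gene. Nr1d1 (chromosome 11, 98767932 to 98775333, minus strand, GRCm38) overlaps Thra on the other strand, and Dbp (chromosome 7, 45705088 to 45710203, plus strand) overlaps Sphk2 likewise. Per3 (chromosome 4, 151003652 to 151044665, minus strand) overlaps Camta1 on its own strand. Whether counting used strand is not stated in the sources at hand, and reads in those overlaps are of uncertain origin. Thra stood at 108 to 209 CPM in dIEC and 108 to 168 CPM in WT. Sphk2 stood at 106 to 205 CPM in dIEC and 114 to 179.9 CPM in WT, far above Dbp. Both were highest in dIEC mouse 7 and WT mice 4 and 10, as were Nr1d1 and Dbp. In those mice Thra was at 209, 168 and 157 CPM, against at most 146 CPM elsewhere. Sphk2 was at 205, 143 and 179.9 CPM there, against at most 130 CPM elsewhere. The part of these neighbours in the values of Nr1d1 and Dbp was not tested. Camta1 stood at 1.87 to 3.24 CPM in dIEC and 1.75 to 2.65 CPM in WT.

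Across the 10 genes the genotype comparison called none by edgeR at an adjusted p under 0.05, where 0.016% of tested genes were called. At an unadjusted p under 0.05 there was 1 of 10, Arntl, against 2.85% of tested genes, and DESeq2 and limma voom also called 0 of 10. Of the 10, 5 were higher and 5 lower in dIEC by the sign of the fitted value, against 6564 higher and 5913 lower among all 12477 tested genes. The median log2 fold change was -0.054, against 0.013 for all tested genes. No gene had genotypes without overlap, as did 0.313% of tested genes. The signs divided as follows: Arntl, Clock, Cry1, Cry2 and Per1 had fold changes above 0, and Per2, Per3, Nr1d1, Nr1d2 and Dbp had fold changes below 0. Leaving out dIEC mouse 7 turned Cry1, Cry2 and Per1 below 0, to -0.043, -0.21 and -0.15.

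**Figure D2:**
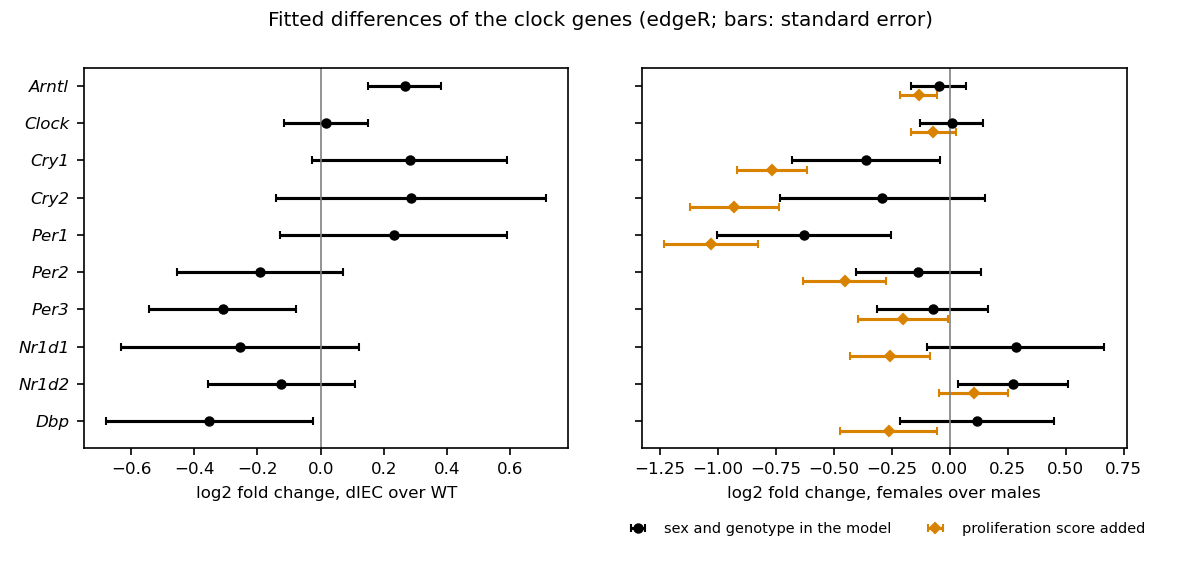
Fitted log2 fold changes with standard errors, dIEC over WT on the left and females over males on the right, where diamonds come from the model that also holds the proliferation score. On the left only Arntl, at 0.27 with a standard error of 0.12, lies over 2 standard errors from 0; on the right Cry1, Cry2 and Per1 lie at -0.76 to -1.03 once the score is in the model.

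Among the males alone, a set examined after the values had been seen, 4 of 10 genes separated the genotypes without overlap, against 6.61% of tested genes. Arntl was at 94.7 to 103 CPM in the 3 dIEC males and 74.6 to 86.0 CPM in the 3 WT males. Per2 was at 22.1 to 22.8 CPM in dIEC males and 25.1 to 28.6 CPM in WT males. For Per3 the gap was narrow, with 4.79 to 7.41 CPM in dIEC males and 7.51 to 10.3 CPM in WT males, and likewise for Nr1d1, with 86.8 to 92.6 CPM in dIEC males and 94.5 to 184 CPM in WT males. The same 4 genes separated when libraries were scaled by size alone (5.87% of tested genes). Fitted on males alone, the edgeR log2 fold change was 0.31 (SE 0.11, unadjusted p = 0.022) for Arntl, -0.28 (SE 0.13, unadjusted p = 0.057) for Per2, -0.45 (SE 0.25) for Per3 and -0.46 (SE 0.23) for Nr1d1. The adjusted p was 0.995 for each. The product of genotype and sex was not called for any of the 10 genes.

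Phase-opposed pairs were set against each other within each library, as the log2 CPM of Arntl minus that of its partner, a difference that scaling leaves almost untouched. Arntl minus Dbp was 4.75, 4.34, 3.99, 3.72 and 4.51 in dIEC mice 1, 3, 5, 7 and 9, against 3.90, 3.39, 3.61, 4.32 and 3.15 in WT mice 2, 4, 6, 8 and 10. The lowest dIEC mouse, mouse 7, lay below WT mice 2 and 8, so the groups overlapped. Means were 4.26 ± 0.41 in dIEC and 3.67 ± 0.46 in WT (SD, n = 5 each), a difference of 0.59 that ranged from 0.46 to 0.75 when single mice were left out. Against Per3 the mean was 3.85 ± 0.26 in dIEC and 3.31 ± 0.34 in WT. For Nr1d1 it was -0.06 ± 0.52 in dIEC and -0.55 ± 0.60 in WT, and for Per2 2.12 ± 0.26 in dIEC and 1.69 ± 0.47 in WT. Nr1d2 gave 1.44 ± 0.15 in dIEC and 1.11 ± 0.48 in WT, and Per1 gave 1.69 ± 0.50 in dIEC and 1.64 ± 0.73 in WT. All 6 differences between these means were above 0, but Arntl is common to them, and Arntl minus any other tested gene had a median difference of 0.26 between genotypes. None of the 6 pairs separated the 5 dIEC from the 5 WT mice, where 4.26% of all genes paired with Arntl did with dIEC higher. Among males, 4 of 6 pairs (with Dbp, Nr1d1, Per2 and Per3) separated with dIEC higher, against 30.9% of all genes paired with Arntl in that direction.

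**Figure D3:**
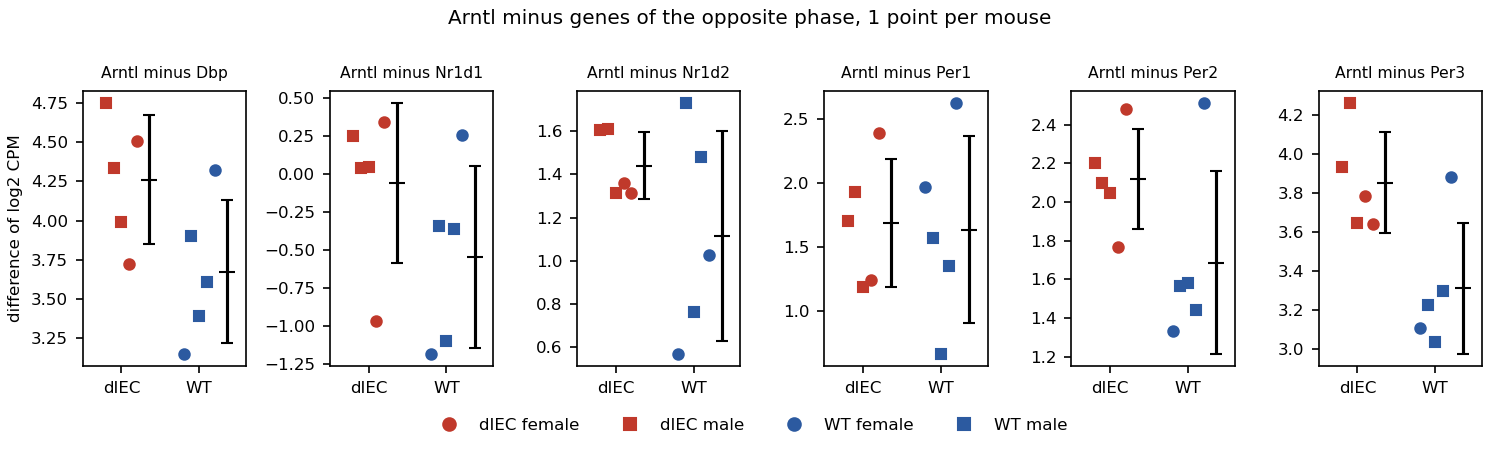
Difference in log2 CPM between Arntl and each of 6 genes that peak at the opposite phase, 1 point per mouse, dIEC left of WT, with black bars for the mean and SD. The dIEC males (squares) lie above the WT males in the panels for Dbp, Nr1d1, Per2 and Per3, while the female WT mouse 8 is the highest WT mouse in all panels but that for Nr1d2.

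Between mice, Arntl and Dbp did not vary in opposition on the TMM scale. Their log2 CPM had a Pearson r of 0.18 (permutation p = 0.614) and a Spearman rho of 0.20 (permutation p = 0.586) over 10 mice, with adjusted p of 0.691 and 0.586 over the 9 relations of Arntl with the other genes. Without dIEC mice 7 and 1, the farthest from the median of Arntl, r was 0.29. With libraries scaled by size alone r was -0.64 (adjusted permutation p = 0.437), and among the 6 males it was -0.43 (exact permutation p = 0.415), so its sign changed with the scaling and with the mice used. After sex and genotype were removed it was 0.68 (adjusted permutation p = 0.035). That permutation shuffled residuals without allowing for the fitted terms, so this p is likely too small and is not read as a pass. The relations of Arntl with Cry1 (r = 0.75, adjusted permutation p = 0.087; rho = 0.83, adjusted permutation p = 0.046) and with Cry2 (r = 0.73, adjusted permutation p = 0.087; rho = 0.71, adjusted permutation p = 0.119) were the closest, at r = 0.64 and 0.61 without those 2 mice.

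Cry1, Cry2 and Per1 varied together from mouse to mouse under both scalings. Of the 36 pairs among the 9 genes without Nr1d1, whose values form separate sets, 35 had a positive r on the TMM scale and 24 when scaled by library size alone, with median r of 0.60 and 0.14. After adjustment over the 36 pairs, 4 passed at 0.05 by Pearson's r. Cry1 and Cry2 had r = 0.97 (permutation p = 4.0e-05, adjusted 0.00144) and rho = 0.95 (permutation p = 7.0e-05, adjusted 0.00216), and r = 0.94 by library size alone. Cry1 and Per1 had r = 0.93 (adjusted permutation p = 0.00456) and rho = 0.92 (adjusted 0.00549), with r = 0.91 by library size alone. Cry2 and Per1 had r = 0.88 (adjusted permutation p = 0.0105) and rho = 0.92 (adjusted 0.00549), with 0.82 by library size alone. Per2 and Dbp had r = 0.87 (adjusted permutation p = 0.00456) and rho = 0.95 (adjusted 0.00216), with 0.77 by library size alone. Without WT mouse 8 and dIEC mouse 9, the lowest for all these genes, r was 0.98, 0.80, 0.75 and 0.90 in that order of pairs, and in the 6 males it was 0.99, 0.77, 0.79 and 0.80.

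**Figure D4:**
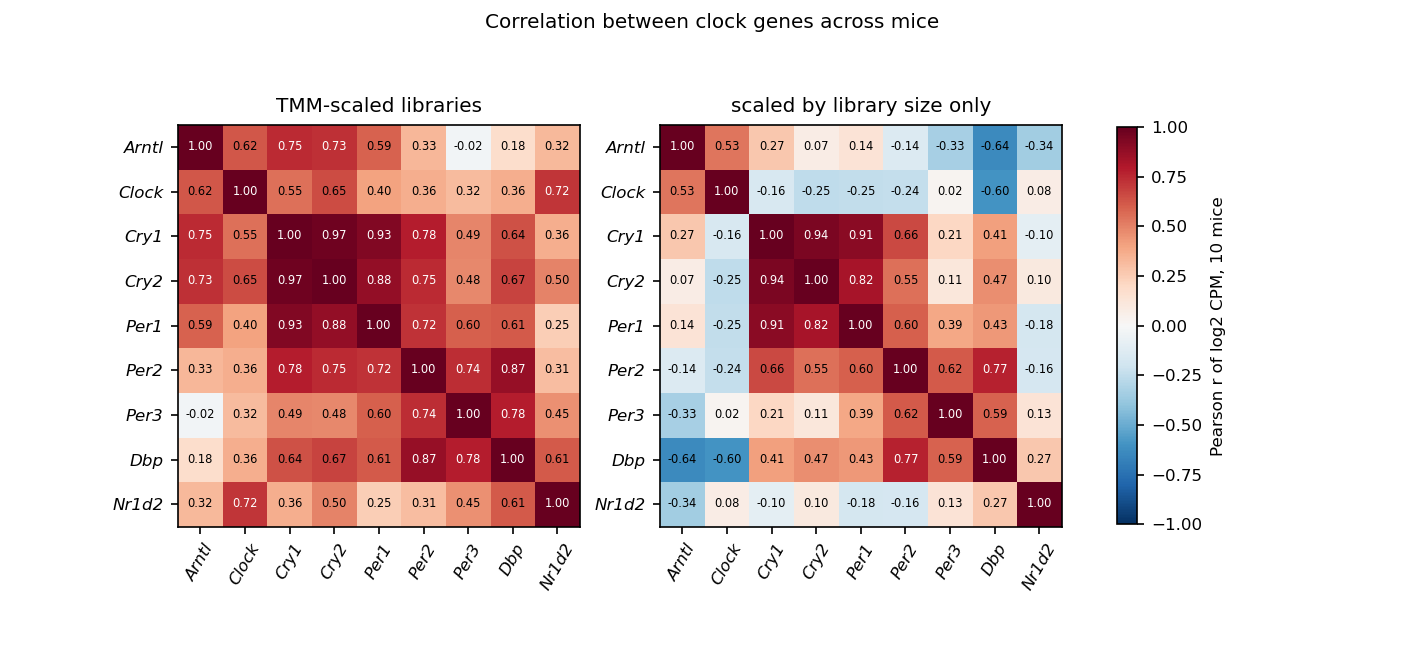
Pearson r between the log2 CPM of 9 clock genes over 10 mice, TMM-scaled on the left and scaled by library size alone on the right, from -1 (blue) to 1 (red). The block of Cry1, Cry2 and Per1 stays at 0.82 or above on both sides, whereas Arntl and Dbp have 0.18 on the left and -0.64 on the right.

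The libraries also differed in the level of proliferation genes, which mark dividing crypt cells, and the clock genes were set against that axis on the TMM scale. The mean log2 CPM of 26 proliferation genes was 4.68, 4.81, 4.40, 2.97 and 5.60 in dIEC mice 1, 3, 5, 7 and 9, against 5.16, 3.68, 5.19, 4.56 and 3.28 in WT mice 2, 4, 6, 8 and 10. It ran opposite to the mean of 16 mature enterocyte genes (r = -0.90, permutation p = 0.00021; rho = -0.84, permutation p = 0.00377). The 5 listed genes of the distal small intestine differed between libraries too. They summed to 2052, 1740, 906, 1030 and 2094 CPM in dIEC mice 1, 3, 5, 7 and 9. In WT mice 2, 4, 6, 8 and 10 the sums were 1198, 902, 1544, 2303 and 1165 CPM. The part of position along the gut in the relations below was not tested. The 3 mice with the lowest proliferation score were dIEC mouse 7 and WT mice 10 and 4, the ones with the highest Nr1d1, Nr1d2 and Dbp. Nr1d1 is given no r over all mice because its values form separate sets. The other 9 genes all had a negative r with the score, against 51.9% of tested genes, and 5 of 9 lay below -0.6, against 28.4%. By Pearson's r, 4 of the 9 passed when adjusted over all 10 genes, but only Nr1d2 and Dbp did when adjusted over the 9. Either way 0 of the 9 passed without WT mouse 4 or without WT mouse 10. Adjusted over the 9, 0 also passed without dIEC mouse 3, dIEC mouse 5 or WT mouse 2, 1 passed without dIEC mouse 9 or WT mouse 6, 3 passed without dIEC mouse 7, and 4 passed without dIEC mouse 1 or WT mouse 8.

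Nr1d2 followed the score most closely by rank, with r = -0.81 (adjusted permutation p = 0.024) and rho = -0.88 (adjusted permutation p = 0.017). Its r was -0.83 without dIEC mouse 7 and WT mouse 10, the farthest on the score, and -0.97 within the 6 males (adjusted exact permutation p = 0.028). Dbp had r = -0.79 (adjusted permutation p = 0.025; rho = -0.66, adjusted 0.123), which was -0.61 without those mice and -0.21 within the 7 mice of higher score, so it rests on the 3 low mice. Clock had r = -0.72 (adjusted permutation p = 0.046; rho = -0.71, adjusted 0.123) and -0.77 without those 2 mice. For Cry2, r was -0.71 (adjusted permutation p = 0.046; rho = -0.65, adjusted 0.123) and -0.72 without them. Adjusted over the 9 genes, Clock and Cry2 each had a permutation p of 0.052. Within the 7 mice of higher score r was -0.64 for Nr1d2 (unadjusted exact permutation p = 0.114) and -0.68 for Clock (unadjusted exact permutation p = 0.084). There it was -0.57 for Cry2 (unadjusted exact permutation p = 0.176) and -0.21 for Nr1d1.

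These relations depend on the scaling. The TMM factor, by which a library's total is multiplied, was lowest in dIEC mouse 7 (0.81) and highest in dIEC mouse 9 (1.21), the mice with the lowest and the highest score. With library size alone 0 of 10 relations passed, and r was 0.45 for Arntl and 0.45 for Clock. The gap in Nr1d1 did not depend on it: by library size alone dIEC mouse 7 had 165 CPM and WT mice 10 and 4 had 170.4 and 162 CPM, while all other mice lay at 64.6 to 108 CPM. Of the 6 differences between Arntl and a phase-opposed gene, 0 passed in relation to the score after adjustment over the 6. Their r ran from 0.20 for Per3 to 0.78 for Nr1d1 (adjusted permutation p = 0.056), and likewise from 0.20 to 0.78 by library size alone. For Nr1d1, whose values form separate sets, r was -0.18 within the 7 mice of higher score.

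**Figure D5:**
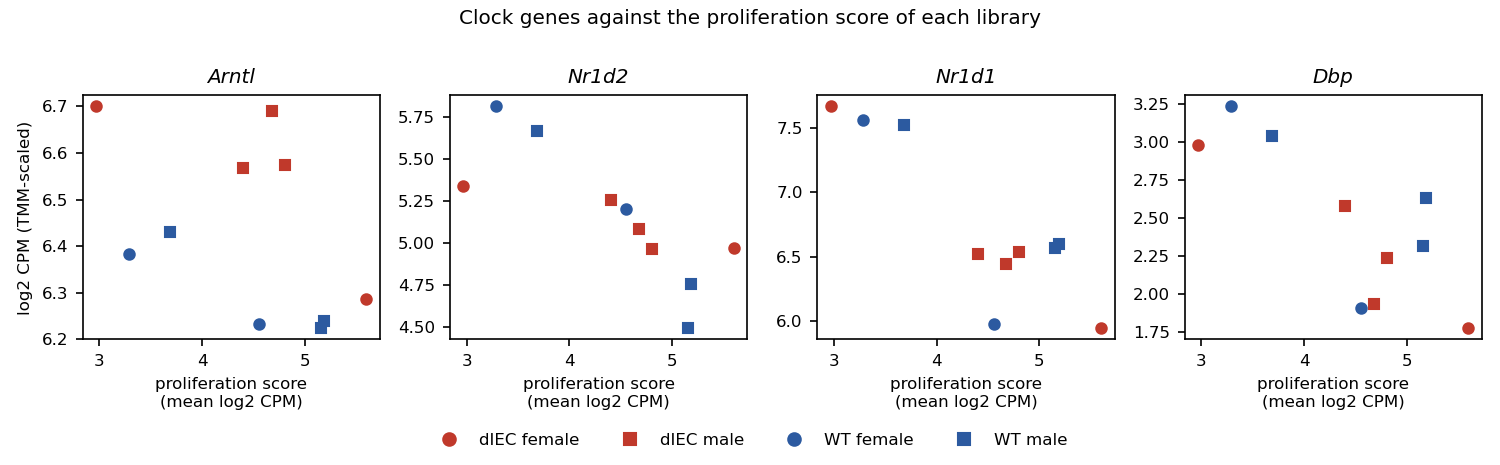
Log2 CPM of Arntl, Nr1d2, Nr1d1 and Dbp against the proliferation score of each library, squares for males and circles for females. Nr1d1 and Dbp are highest in the 3 mice with scores of 2.97 to 3.68; for Arntl the 3 dIEC males, at scores of 4.40 to 4.81, lie above the 3 WT males, at 3.68, 5.16 and 5.19.

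Between females and males no clock gene was called by edgeR (0 of 10, against 0.0401% of tested genes), none had an unadjusted p under 0.05 (4.44% of tested genes), and DESeq2 and limma voom called 0. Per1 averaged 22.9 ± 14.4 CPM in the 4 females and 34.4 ± 11.4 CPM in the 6 males (SD), with a log2 fold change of -0.63 (SE 0.37). When the proliferation score was added to the model, 3 of 10 were called, all lower in females, against 4.08% of tested genes called in either direction and 2.72% called lower. Their log2 fold changes, females over males, were -0.76 for Cry1 (SE 0.15, edgeR adjusted p = 0.026), -0.93 for Cry2 (SE 0.19, adjusted p = 0.031) and -1.03 for Per1 (SE 0.20, adjusted p = 0.030). DESeq2, limma voom and scaling by library size alone also called 3 of 10 in that model. Leaving out WT mouse 4, 8 or 10 left 0 called. The WT females, mice 8 and 10, stood apart in other genes. Erythroid genes summed to 0 and 0.179 CPM in WT mice 8 and 10, against 13.2 to 28.4 CPM in the other 8 libraries. Fabp1, a fatty acid binding protein gene of mature enterocytes, was at 1902 and 2787 CPM there and at most 1068 CPM elsewhere. Sis, the sucrase-isomaltase gene, was at 5860 and 5669 CPM there and at most 3967 CPM elsewhere. In the same model 3 of 16 mature enterocyte genes were called lower in females, namely Treh (-1.06, edgeR adjusted p = 0.016), Apoa1 (-0.50, adjusted p = 0.043) and Alpi (-0.48, adjusted p = 0.044), which encode trehalase, an apolipoprotein and intestinal alkaline phosphatase. The part of these features in the clock gene differences was not tested. The score was computed from the same libraries, and the labels do not say whether the sexes were sampled together. With the score in the model, the regulators Npas2, at -0.60 (SE 0.14, adjusted p = 0.036), and Bhlhe40, at -0.81 (SE 0.11, adjusted p = 0.0049), were also called lower in females.

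The product of genotype and sex, which asks whether the genotype difference depends on sex, was called for 0 of 10 genes by edgeR, against 0.00801% of tested genes, and by DESeq2 and limma voom as well. At an unadjusted p under 0.05 there were 0 of 10, against 2.1% of tested genes. The median product term was 0.28, against 0.041 for all tested genes. Of the 10 terms 7 were above 0, against 6835 of all 12477 tested genes.

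Of 30 further clock genes in 4 lists, 27 were in the table, 23 were tested and 0 were called by edgeR for genotype, for sex or for their product. At an unadjusted p under 0.05 there were 0 for genotype and 0 for sex, against 2.85% and 4.44% of all tested genes. For the product there was 1, against 2.1%, the drug efflux pump gene Abcb1a (product term -1.11, SE 0.40). Npas2, which can stand in for Clock, averaged 87.7 ± 30.0 CPM in dIEC and 67.1 ± 24.96 CPM in WT (SD, n = 5 each; log2 fold change 0.39, SE 0.31). Bhlhe40, an E-box repressor, averaged 76.6 ± 25.7 CPM in dIEC and 69.7 ± 27.2 CPM in WT (0.12, SE 0.31). Within dIEC, Npas2 was highest in mouse 7 and Bhlhe40 in mouse 5, and both genes were at their lowest in each genotype in the females dIEC mouse 9 and WT mouse 8. Rora and Ciart were listed at under 1.7 CPM in every library and were not tested, and Arntl2, Rorb and Bhlhe41 had no row in the table.

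The D-box factors beside Dbp were split. Tef, which activates at D-boxes, averaged 30.3 ± 8.69 CPM in dIEC and 35.8 ± 14.4 CPM in WT (log2 fold change -0.23, SE 0.30), while Nfil3, which represses there, averaged 49.1 ± 12.9 CPM in dIEC and 40.2 ± 6.71 CPM in WT (0.29, SE 0.20). Neither was called, and Hlf, at 0.184 to 1.70 CPM, was not tested. Of 8 kinases and ubiquitin ligases that set the life of PER and CRY proteins, 7 were higher and 1 lower in dIEC by sign and 0 were called. Among all 12477 tested genes 6564 were higher and 5913 lower. The most abundant were Csnk1a1, at 443 ± 25.8 CPM in dIEC and 429 ± 53.1 CPM in WT, and Csnk1d, at 153 ± 25.5 CPM in dIEC and 156 ± 25.7 CPM in WT. Of 10 tested output genes of the clock, 2 were higher and 8 lower by sign, against the same share of all tested genes, and 0 were called. The glucose transporter gene Slc5a1 averaged 1613 ± 439.5 CPM in dIEC and 2051 ± 633 CPM in WT (log2 fold change -0.32, SE 0.24). The peptide transporter gene Slc15a1 averaged 1320.2 ± 596 CPM in dIEC and 1148 ± 387 CPM in WT (0.20, SE 0.34).

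Per1 and its relatives also answer to signals other than the clock, so genes of those signals were read beside them. Fos, an immediate early gene, stood at 435 to 875 CPM in dIEC and 478 to 905 CPM in WT, with the highest values in dIEC mouse 7 and WT mouse 4, as for Per1. Junb stood at 367 to 592 CPM in dIEC and 335 to 513 CPM in WT, highest in the same mice. Fosb, Zfp36, Klf4 and Klf6 were also highest in those mice. The rest of the 15 immediate early genes had their highest value in another mouse in at least 1 genotype. Egr1 was highest in dIEC mouse 1 and WT mouse 2, and Ier2 in dIEC mouse 9 and WT mouse 8. For Nr4a1 these were dIEC mouse 9 and WT mouse 2. The shared top mice were not particular to such genes. The mean log2 CPM of the 16 mature enterocyte genes was also highest in dIEC mouse 7 (11.74) and WT mouse 4 (11.62, with 11.60 in WT mouse 10). Sgk1, induced by glucocorticoids, stood at 83.1 to 589 CPM in dIEC and 110 to 522 CPM in WT, with the highest values in dIEC mouse 5 and WT mouse 4. Cdkn1a, also on that list, stood at 91.8 to 213 CPM in dIEC and 102 to 185 CPM in WT. For genotype 0 of 15 immediate early and 0 of 7 tested glucocorticoid response genes were called by edgeR. None of either had an unadjusted p under 0.05, against 2.85% of all tested genes. In the model of the sexes with the score, Zfp36 and Klf4 of the immediate early genes and Sgk1 (-1.57, SE 0.27, edgeR adjusted p = 0.030) were called lower in females together with Cry1, Cry2 and Per1. Their part in those differences was not tested.

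Over the 10 libraries, the genes whose log2 CPM most resembled Arntl, among 8442 others with a mean of at least 10 CPM, were Ppp4r1l-ps and Rap2b (r = 0.98 each) and Kdm7a, Xrn1 and Xylt2 (0.97 each). Xpot (-0.96), Josd1 (-0.96) and Muc4 (-0.95) were the least like it. Of the clock genes, Npas2 ranked 373rd in likeness to Arntl and Cry1 748th. For Dbp the nearest of 8443 genes were Slc4a5 and Zbtb40 (0.98 each), Fkbp1a and Heatr5a (0.97 each) and Slc12a9 (0.96), and the farthest were Top2b (-0.97), Xrn2 (-0.96) and Rps6ka3 (-0.95). Nr1d1, whose values form separate sets, ranked 44th among them, Per2 286th and Tef 461st. These r values describe the same 10 libraries, which share the scaling and the axis of proliferation and enterocyte genes, and carry no test.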

How the data were processed

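The deposited table holds raw read counts per gene, 1 column per mouse. The submitters' processing notes name Novoalign and the mm10 build. A stranded kit after ribosomal RNA removal was used, per the labels' protocols. No source used here names the counting program or the annotation. Every listed gene reaches 10 counts in at least 1 library.

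edgeR 4.0.16 (R 4.3.3) was run on all genes kept by filterByExpr, with TMM scaling, robust quasi-likelihood fits and Benjamini-Hochberg adjustment at 0.05. Standard errors were derived from the log2 fold change and its F value. DESeq2 1.42.0 and limma 3.58.1 were alternatives. Every limma voom fit also gave each library its own quality weight. Log2 CPM used a prior count of 2. Correlations used 100000 permutations, or all of them for 9 or fewer mice. Positions were read from GENCODE annotation of GRCm38 (mm10). The scripts were checked on simulated counts. Within a genotype, libraries differed by more than counting error (reduced chi-square 17.0 to 166), and each was 1 replicate. Totals set counting precision, and edgeR p-values set a difference against the spread between mice. Permutation p-values give the share of shuffled orders whose correlation is at least as strong as the observed 1.

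Members and gene lists were chosen with earlier results of these data known. Named genes are all 10 members, every gene of the 2 lists closest to them, the 2 most abundant and any called gene of the other lists, the 5 most and 3 least similar to Arntl and to Dbp, H2-Ab1, and the 2 most abundant immediate early and glucocorticoid genes. Abcb1a, Zfp36, Klf4, Fosb, Klf6, Egr1, Ier2, Nr4a1, Ptprc, Fabp1 and Sis were named after their values were seen. 1 gene of these lists is not reported here.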

Additional observations from a re-analysis of the deposited data

Results flagged for a closer look

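Over 40 groups of libraries (10 genes, each in dIEC, WT, females and males), 2 values stood apart by Dixon's test at the 95% level, where chance gives about 2. Nr1d1 was at 203 CPM in dIEC mouse 7, whereas the other dIEC mice lay at 61.4 to 92.6 CPM. Nr1d1 was at 184 CPM in WT mouse 4, whereas the other males lay at 86.8 to 96.9 CPM. Both mice were among the 3 with the lowest proliferation score. Its part in these values was not tested.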

How the results depend on the processing

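No clock gene was called for genotype or for the product of genotype and sex under any alternative run, and for sex 3 were called only when the proliferation score was added. In that model, leaving out single mice gave 0 to 3. Of 220 refitted genotype fold changes 203 kept their sign, and of 200 for sex 174 did; the cause of the other signs was not tested. Log2 fold changes, dIEC over WT, that turned were Clock at -0.11 in females alone, Per1 at -0.14 in males alone and -0.14 without dIEC mice 7 and 9, Nr1d1 at 0.072 in females alone, and Nr1d2 at 0.21 by limma voom, 0.057 in males alone and 0.049 without dIEC mice 7 and 9. Leaving out single mice gave Clock -0.047 to 0.078, Cry1 -0.043 to 0.46, Cry2 -0.21 to 0.58, Per1 -0.15 to 0.51, Per2 -0.41 to 0.017 and Nr1d2 -0.27 to 0.081. For females over males, limma voom with its library weights turned Arntl to 0.075, Cry2 to 0.17, Per2 to 0.072 and Per3 to 0.16. Arntl was 0.012 without dIEC mice 7 and 9. Clock turned to -0.013 with DESeq2 or its size factors, -0.047 by library size alone and -0.071 with the score, and Nr1d1 and Dbp turned to -0.26 and -0.26 with the score. Leaving out single mice gave Arntl -0.12 to 0.040, Clock -0.045 to 0.085, Per2 -0.41 to 0.041, Per3 -0.22 to 0.076, Nr1d1 -0.20 to 0.51 and Dbp -0.17 to 0.30.

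The correlation of Arntl with Dbp was 0.68 after sex and genotype, -0.38 after the proliferation score, -0.64 by library size alone and -0.43 in males, the last added after seeing the data. Of all 10 genes, Nr1d1 included, 5 passed in relation to the proliferation score. This number was 9 after sex and genotype, where residuals were permuted without allowing for the fitted terms, so it is likely too high. In alternatives added later the number was 0 by library size alone (Arntl 0.45, Clock 0.45) and 0 without the 3 lowest-scoring mice (Per3 0.195). It was 1 in males and 2 with Nr1d1 left out. Leaving out single mice gave 0 (without WT mouse 4 or WT mouse 10) to 7 (without WT mouse 8).

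Over all genes, genotype calls numbered 2, against 4 by DESeq2, 4 with the score and 0 in females alone. Sex calls numbered 5, against 13 by DESeq2, 509 with the score and 9 without dIEC mice 7 and 9. The product gave 1, against 18 by DESeq2, 11 with the score and 0 by library size alone or limma voom. No paired analysis was possible because the genotypes share no mouse numbers. Dbp and Per3, with fewer than 110 counts in any library, are the least precise.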
